A study of Rattus norvegicus with 8 samples.

Results

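*Enc1*, *Mamdc2*, *Zfpm1*, and *Arhgap23* are 4 of the 32883 genes in the count table, and all 4 were among the 13937 genes with enough reads to be tested. They were chosen by their expression values in these same rats, for a low spread within groups and a gap between running and control rats, so their values below describe that choice and carry no test. The tissue was the right Achilles tendon of male wild-type SD rats 8 to 10 weeks old, with 1 polyadenylate mRNA library from each of 8 rats. By the sample labels, 4 rats exercised for 1 hour and were killed 12 hours after running (12 hours p.r.), and 4 were controls. By the authors' account, the exercise was treadmill running, and the naïve control rats (NC) stayed in cages until the same time. The runners were urged on by airflow and, when they left the belt, by weak electric stimulation, and running and these stimuli cannot be told apart. Reads counted on genes ran from 7350509 to 10648648 per rat at 12 hours p.r. and from 8385779 to 12951397 in the NC group. Each tendon was sequenced whole, and in such bulk tissue fewer cells of a type and less RNA per cell cannot be told apart.

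The products of these genes act in different compartments of the cell and its surroundings. *Enc1* encodes ectodermal-neural cortex 1, a kelch-repeat protein with a BTB domain that binds actin and belongs to the family of substrate adaptors for CUL3 ubiquitin ligases. *Mamdc2* encodes a secreted protein with MAM domains that is found in extracellular matrix. *Zfpm1* encodes FOG1, a zinc finger cofactor of GATA transcription factors that recruits the NuRD and CtBP corepressors and is best known from red cell and platelet precursors. *Arhgap23* encodes a GTPase-activating protein, the kind of enzyme that switches off small GTPases, some of which regulate the actin cytoskeleton.

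At 12 hours p.r., *Enc1* and *Mamdc2* were lower and *Zfpm1* and *Arhgap23* were higher than in the NC group, each with no overlap between the rats. Lack of overlap in either direction was seen in 845 of the 13937 genes (6.06%), 3.52% being higher and 2.55% lower after running, and the genes described here were picked for that property. No cause of the differences was tested.

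A pair of stretches upstream of annotated starts are printed to show the DNA in front of 1 gene that was lower and 1 that was higher. They are the 250 bases before the outermost start in RefSeq, on build GRCr8, which is a later assembly than the Rnor_6.0 genome of the counts. They lie at chr1:230443015-230443264 on the minus strand for *Mamdc2* and at chr10:82890771-82891020 on the plus strand for *Arhgap23*. They are written 5′ to 3′ on the strand of the gene, and capitals mark the GC box GGGCGG on either strand.

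Mamdc2: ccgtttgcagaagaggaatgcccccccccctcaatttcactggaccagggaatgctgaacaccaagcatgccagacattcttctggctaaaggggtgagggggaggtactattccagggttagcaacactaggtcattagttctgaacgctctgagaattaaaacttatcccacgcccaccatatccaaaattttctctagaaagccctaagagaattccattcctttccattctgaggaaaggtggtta
Arhgap23: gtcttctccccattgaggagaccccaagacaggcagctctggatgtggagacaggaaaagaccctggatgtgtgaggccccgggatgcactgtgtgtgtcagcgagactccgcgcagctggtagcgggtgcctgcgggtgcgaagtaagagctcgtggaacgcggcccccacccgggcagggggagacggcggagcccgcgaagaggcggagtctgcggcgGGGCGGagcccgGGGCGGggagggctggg

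The *Mamdc2* stretch had a GC content of 47.2% and 3 CpG dinucleotides, against medians of 52.0% and 6 over 27457 such stretches. The *Arhgap23* stretch had 69.2% GC, 21 CpG dinucleotides, and 2 copies of GGGCGG, a motif present in 32.4% of all such stretches. For *Zfpm1* the stretch lay inside the annotated gene and is not printed. Its GC content of 86.0% exceeded that of 99.9% of the stretches, and it held 4 copies of GGGCGG. Further motifs were searched on both strands and found in none of the 3 windows. They were the CCAAT box, present in 34.3% of all stretches, the TATA box TATAAA in 13.1%, the E-box CACGTG in 5.78%, and the GATA motif AGATAA in 10.1%. These matches describe the letters in 1 window per gene and are not sites of binding.

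*Enc1* (ENSRNOG00000016541) was at 33.6, 32.7, 37.4, and 35.1 CPM in 12 hours p.r. replicates 1 to 4, where CPM is counts per 1000000 reads after TMM scaling of the libraries. The NC replicates 1 to 4 were at 78.3, 62.2, 64.5, and 68.9 CPM. The highest running rat was thus well below the lowest control rat, and NC replicate 1 was the highest of all 8. The log2 fold change was −0.98 (standard error, SE, 0.10), a mean 0.507 times that of the NC group. The values rested on 248 to 977 reads per rat.

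*Mamdc2* (ENSRNOG00000024620) was at 15.9, 17.7, 15.6, and 17.5 CPM in the running rats. In the NC rats it was at 28.1, 26.0, 27.6, and 30.8 CPM. The groups lay apart, and within each group the rats stayed within a few CPM of each other. Its log2 fold change was −0.76 (SE 0.10). It had the fewest reads of the genes that were lower, 123 to 366 per rat.

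*Zfpm1* (ENSRNOG00000043077) went the other way, with 28.9, 25.8, 31.2, and 24.8 CPM at 12 hours p.r. and 16.2, 15.1, 17.0, and 16.1 CPM in the NC group. The NC rats were nearly level, while the running rats spread more widely. The log2 fold change was 0.78 (SE 0.11), on 123 to 264 reads per rat.

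*Arhgap23* (ENSRNOG00000022771) was at 54.7, 46.0, 56.9, and 54.8 CPM at 12 hours p.r. and at 30.9, 32.7, 37.2, and 39.3 CPM in the NC group. Its groups came closest to each other. The lowest running rat, replicate 2, was separated from the highest control rat, replicate 4, by a gap of 0.22 on the log2(CPM + 0.5) scale. The corresponding gaps were 0.73 for *Enc1*, 0.55 for *Mamdc2*, and 0.53 for *Zfpm1*. The log2 fold change of *Arhgap23* was 0.60 (SE 0.11), and it had 267 to 584 reads per rat.

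**Figure D1:**
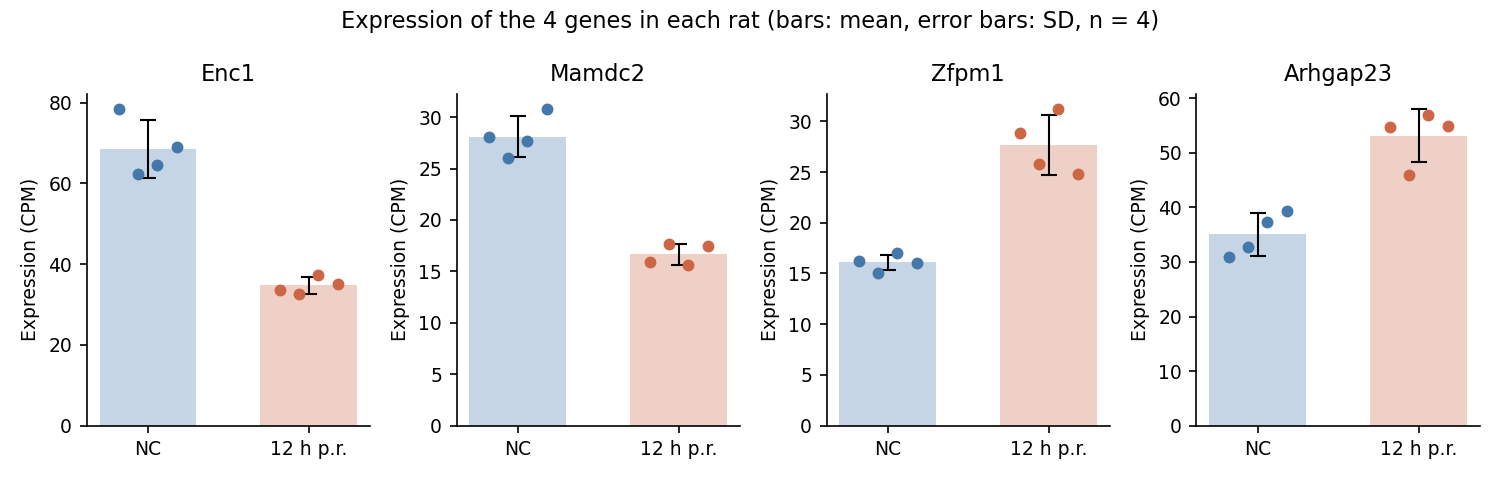
Expression of *Enc1*, *Mamdc2*, *Zfpm1*, and *Arhgap23* in CPM (vertical axes, each from 0) in control rats (NC) and running rats (12 h p.r.), with 1 point per rat, bars for the mean, and error bars for the SD (n = 4). No running rat overlaps a control rat in any panel, and the smallest gap is that of *Arhgap23*, between 39.3 and 46.0 CPM.

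Levels of different genes were compared per length, as the deposited FPKM (fragments scaled by gene length and 1 factor per rat). In the NC group the order was *Enc1* at 15.1 ± 1.597 FPKM (SD, n = 4), *Mamdc2* at 14.1 ± 1.00, *Arhgap23* at 7.99 ± 0.889, and *Zfpm1* at 5.19 ± 0.251. *Enc1* and *Mamdc2* overlapped there, and *Mamdc2* was above *Enc1* in NC replicate 4. After running the order of the means was *Arhgap23* at 12.1 ± 1.11 FPKM (SD, n = 4), *Zfpm1* at 8.89 ± 0.940, *Mamdc2* at 8.33 ± 0.533, and *Enc1* at 7.64 ± 0.469. *Arhgap23* was the highest in each running rat, while the other three overlapped. *Arhgap23* was above *Zfpm1* in each of the 8 rats. The ratio of *Enc1* to *Arhgap23* FPKM was 2.46, 1.84, 1.68, and 1.70 in the NC rats and 0.596, 0.689, 0.637, and 0.621 in the running rats. Such a ratio within a rat does not depend on how libraries are scaled. Both genes were chosen for a gap between these groups, so the shift of the ratio and of the order is no support. All 4 were genes of middling expression, and between 42.1% (*Enc1*) and 55.9% (*Zfpm1*) of the genes tested had a higher mean FPKM.

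The spread that helped to choose these genes was small but not the smallest of the transcriptome. The pooled SD within groups on the log2(CPM + 0.5) scale was 0.09 for *Mamdc2*, 0.12 for *Zfpm1*, 0.12 for *Enc1*, and 0.15 for *Arhgap23*, against a median of 0.23 over all genes tested. A lower SD was held by 4.94% of genes for *Mamdc2* and by 23.3% for *Arhgap23*. *Zfpm1* varied by 4.86% (coefficient of variation) among NC rats, where counting error alone gives 7.55%, and by 10.5% against 6.56% among running rats. *Mamdc2* varied by 6.32% among running rats, where counting error gives 8.46%, and by 7.02% against 5.72% among NC rats. *Enc1* was at 5.88% against 5.86% after running but at 10.4% against 3.67% in the NC group. *Arhgap23* exceeded its counting error in both groups, with 9.14% against 4.75% after running and 11.2% against 5.13% in the NC group.

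Ranked by the gap divided by this SD, *Enc1* came 1st of the 13937 genes with a ratio of 6.14, *Mamdc2* 2nd with 5.82, and *Zfpm1* 3rd with 4.60. Just after them came *Atoh8*, a basic helix-loop-helix transcription factor gene, at 4.51 with a log2 fold change of 1.07. *Arhgap23* was at place 83 with a ratio of 1.497, between *Dnpep* at 1.502 and *Spred3* at 1.49, so the description of a clear gap fitted it less than the other genes. A gap of at least 0.22 together with an SD of at most 0.15, the loosest values among the chosen genes, was found in 22 genes. These 22 include the 4 chosen genes, and 16 of them were higher and 6 lower after running. In fold change alone the 4 chosen genes were not extreme. Of the genes tested, 2.25% changed by more than *Enc1* and 7.23% by more than *Arhgap23*.

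**Figure D2:**
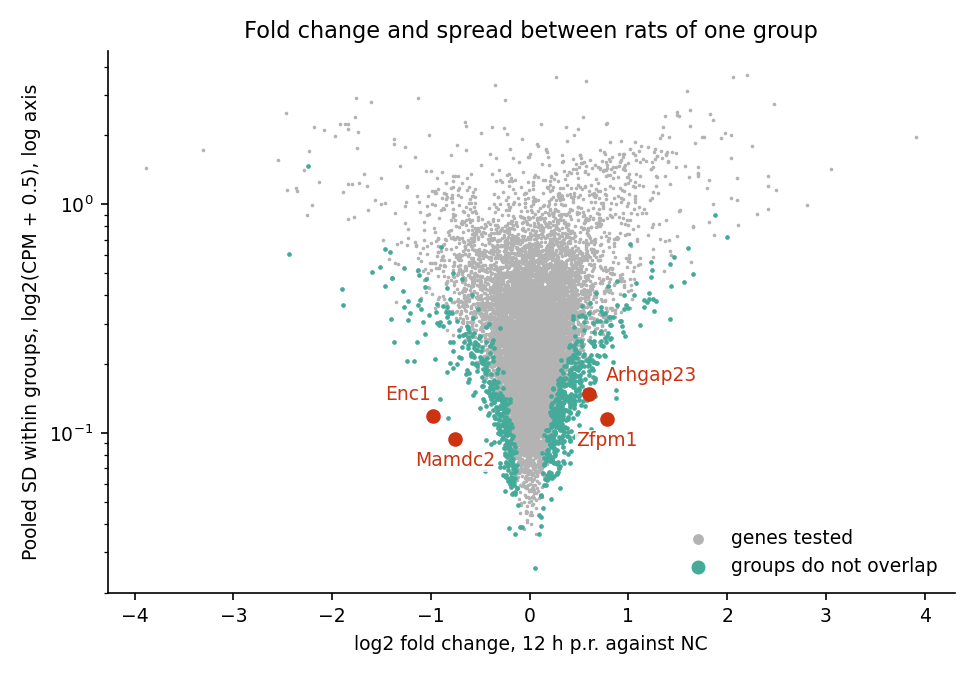
Each gene tested by its log2 fold change at 12 h p.r. against NC (horizontal axis) and by the pooled SD of log2(CPM + 0.5) between rats of one group (vertical axis, log scale), with genes whose groups do not overlap in green. *Enc1* (−0.98), *Mamdc2* (−0.76), and *Zfpm1* (0.78) lie at the outer edge for their SD, and *Arhgap23* (0.60) lies among other green points.

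The genes most like each of these over the 8 rats were found by Pearson's r of log2(CPM + 0.5). These r are given as a description with no test, and they are dominated by the step between the groups, which the choice of genes fixed. For *Enc1*, 26 genes had an r above 0.9, and the 5 highest were *Diaph1* (0.97), *Mamdc2* (0.96), *E2f4* (0.96), *Heph* (0.95), and *Ccdc152* (0.95). *Diaph1* encodes a formin that nucleates actin filaments downstream of RhoA, and *Heph* a copper-containing ferroxidase. *Diaph1* was at 73.9 CPM on average at 12 hours p.r. and 91.0 CPM in the NC rats, which gave a log2 fold change of −0.30 (SE 0.08).

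*Mamdc2* was most like *Wwc3* (r of 0.98), *Wee1* (0.96), *Zbtb16* (0.96), *Steap4* (0.96), and *Enc1* (0.96). *Wee1*, a kinase gene that restrains entry into mitosis, had a mean of 36.1 CPM after running and 79.7 CPM in the NC group. *Zbtb16*, a zinc finger repressor gene, had means of 8.52 and 22.5 CPM, the largest step among its 5 (log2 fold change of −1.40, standard error 0.22).

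*Zfpm1* was most like the gene LOC100361543 (r of 0.98), *Atoh8* (0.98), *Ttll1* (0.97), the miRNA gene AC099089.1 (0.96), and *Shroom3* (0.96). *Atoh8* had means of 17.5 CPM after running and 8.31 CPM in the NC group. *Shroom3* encodes an actin-binding protein that shapes cells and had means of 8.83 and 6.92 CPM (log2 fold change of 0.35, SE 0.13).

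*Arhgap23* was most like *Cdh13* (r of 0.96), the lincRNA gene AABR07002677.2 (0.96), *Dok4* (0.96), *Itga3* (0.95), and *Mb21d2* (0.95). *Cdh13* encodes T-cadherin and had means of 251 and 208 CPM. *Itga3*, an integrin subunit gene, had means of 29.0 and 18.4 CPM with rats of the groups overlapping. When the group means were removed, r between *Enc1*, *Mamdc2*, *Zfpm1*, and *Arhgap23* ran from −0.46 to 0.44 over their 6 pairs. This range pools both groups. The sign of r differed between the running and the NC rats for all pairs but those of *Zfpm1* with *Enc1* and with *Arhgap23*, and with 4 rats in a group no r is given within one.

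The nearest family member of each gene, fixed by name, was followed in the same fit. *Klhl25*, also called Enc2, was at 2.73 ± 0.248 FPKM (SD, n = 4) in the running rats and 2.76 ± 0.233 FPKM (SD, n = 4) in the NC rats, which gave a log2 fold change of −0.01 (SE 0.14). The NC level of *Enc1* was 5.48 times that of *Klhl25*, and the 12 hours p.r. level 2.80 times. *Mamdc4* was barely expressed, at 0.569 ± 0.187 and 0.651 ± 0.162 FPKM (SD, n = 4), with a log2 fold change of −0.18 (SE 0.32).

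*Zfpm2*, which encodes FOG2, was at 1.71 ± 0.381 FPKM (SD, n = 4) in the running rats and 1.55 ± 0.101 FPKM (SD, n = 4) in the NC rats, which gave a log2 fold change of 0.16 (SE 0.19). *Arhgap21* was at 7.54 ± 0.757 FPKM (SD, n = 4) and 7.78 ± 0.350 FPKM (SD, n = 4), which gave a log2 fold change of −0.04 (SE 0.09). *Arhgap23* was therefore level with *Arhgap21* in the NC rats, at 1.03 times its FPKM, and at 1.598 times after running. By edgeR, the adjusted p values of *Klhl25*, *Mamdc4*, *Zfpm2*, and *Arhgap21* were 0.991, 0.887, 0.822, and 0.921, and the rats of both groups overlapped in each. These p values do not show that the family members were unchanged. The difference in fold change between each pair was not tested because the first gene of each was chosen for its own.

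**Figure D3:**
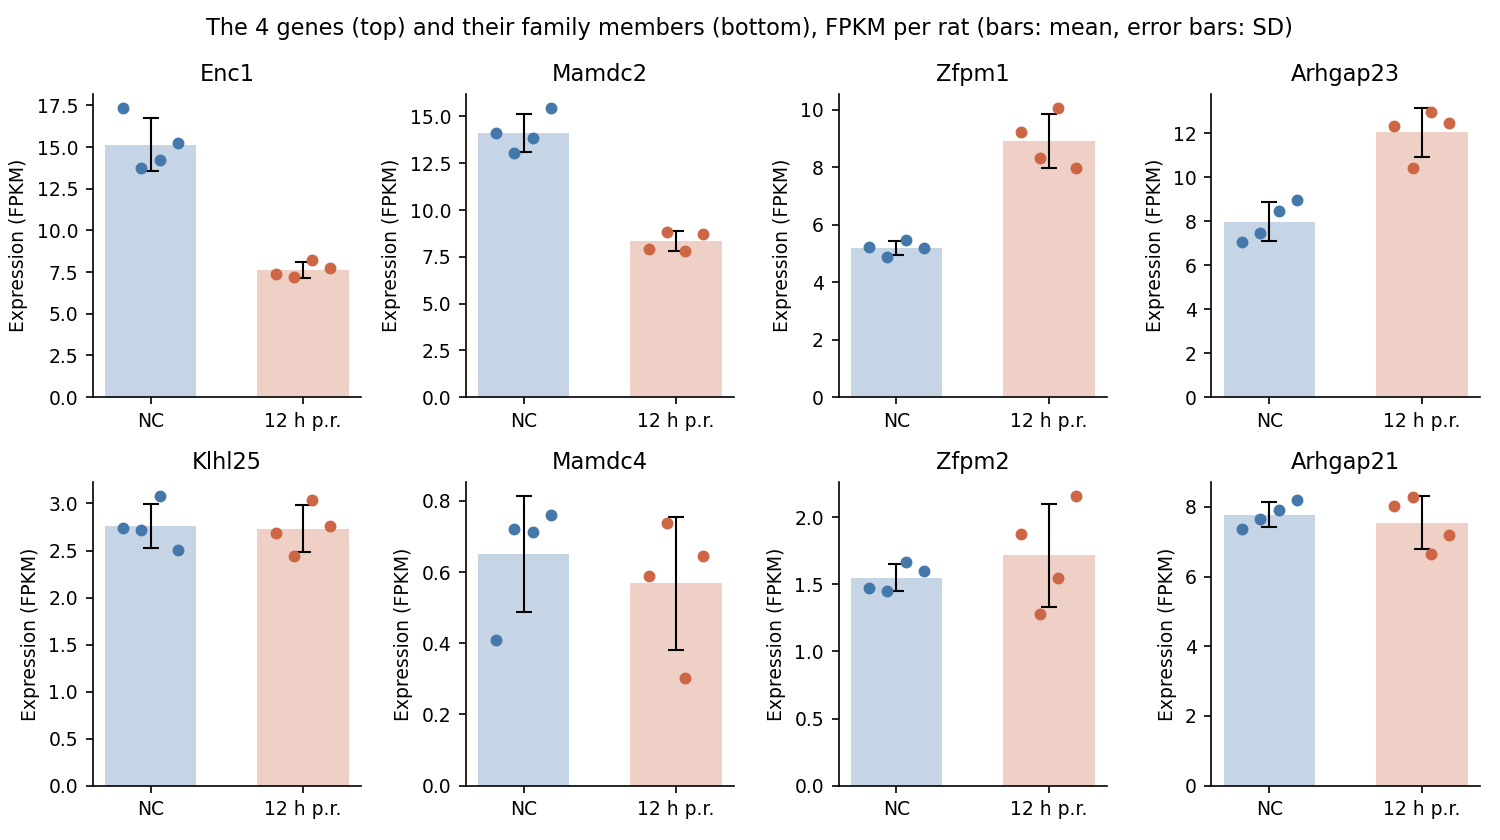
FPKM of *Enc1*, *Mamdc2*, *Zfpm1*, and *Arhgap23* (top) above their family members *Klhl25*, *Mamdc4*, *Zfpm2*, and *Arhgap21* (bottom) in control rats (NC) and running rats (12 h p.r.), with 1 point per rat, bars for the mean, and error bars for the SD (n = 4). The groups are apart in the top panels and overlap in the bottom panels. The vertical axes start at 0 and differ between panels.

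Lists of genes that share a family, a complex, or a pathway with these genes were then counted in the test of all genes. Over the whole transcriptome 1326 genes (9.51%) had an unadjusted p value under 0.05 by edgeR's quasi-likelihood test, 5.44% higher and 4.08% lower at 12 hours p.r., and 1 gene (0.00718%), *Enc1*, had an adjusted p value under 0.05, by Benjamini-Hochberg adjustment. In the 7 lists, 0 genes reached an adjusted p value under 0.05 with edgeR and 1 gene, *Nkd1*, did with DESeq2, while 11 had an unadjusted p value under 0.05 with edgeR. *Enc1* was chosen on this contrast, so its call is no support. Over all genes DESeq2 called 96, and edgeR called 0 when any 1 of the 8 rats was left out. The median log2 fold change over all genes tested was 0.02.

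Around *Enc1*, 42 genes of CUL3, its cofactors, and kelch adaptors were tested, with a median log2 fold change of 0.03. At an unadjusted p value under 0.05, 0 were higher and 1 was lower, *Kbtbd2*, a BTB-kelch adaptor gene. *Kbtbd2* was at 34.3 ± 0.424 CPM (SD, n = 4) in the running rats and 45.6 ± 5.38 CPM (SD, n = 4) in the NC rats, with no overlap (log2 fold change −0.41 with SE 0.10; adjusted p = 0.392, edgeR). The list held 6 such genes instead of 1 without 12 hours p.r. replicate 3, and 2 without 12 hours p.r. replicate 2, NC replicate 1, or NC replicate 3. The largest log2 fold change of the list, 1.25 for *Klhl33*, came with 15.8 CPM in 12 hours p.r. replicate 3 against at most 5.51 CPM in the other rats. The genes of the list with the highest FPKM were *Rbx1*, *Nedd8*, and *Ivns1abp*, with log2 fold changes of −0.06, −0.09, and −0.35, while *Cul3* itself was at 0.04 (SE 0.12).

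*Enc1* is also known as a gene induced by β-catenin and by p53, and targets of both were counted. Of 11 β-catenin target genes tested, 2 were higher at an unadjusted p value under 0.05 and 0 lower, with a median log2 fold change of 0.06. *Nkd1*, a feedback inhibitor of Wnt signalling, was at 14.9 ± 2.55 CPM (SD, n = 4) in the running rats and 8.85 ± 1.18 CPM (SD, n = 4) in the NC rats (log2 fold change 0.75 with SE 0.16; adjusted p = 0.385, edgeR). *Axin2*, another such inhibitor, was at 12.1 ± 2.72 and 8.76 ± 1.56 CPM (SD, n = 4) and overlapped between the groups (log2 fold change 0.46 with SE 0.20; adjusted p = 0.519, edgeR). The count was 1 at an unadjusted p value under 0.05 without 12 hours p.r. replicate 3 or 4 or NC replicate 2 or 4. *Ccnd1*, *Apcdd1*, and *Nkd2*, the most abundant of this list, had log2 fold changes of 0.21, −0.23, and −0.19. Among 13 p53 target genes 0 had an unadjusted p value under 0.05, and their median was −0.02. This count was 1 without 12 hours p.r. replicate 3 or NC replicate 1, 2, or 3. The most abundant, *Phlda3*, *Ccng1*, and *Btg2*, had log2 fold changes of 0.23, 0.49, and −0.02, and *Ccng1* stood at 842 CPM in 12 hours p.r. replicate 3 against at most 309 CPM in the other rats.

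Of the other genes with MAM domains, the modules that *Mamdc2* is built from, 10 were tested with a median log2 fold change of −0.01. At an unadjusted p value under 0.05, 0 were higher and 1 was lower, *Egfl6*, a secreted matrix protein gene. *Egfl6* was at 20.4 ± 7.75 CPM (SD, n = 4) in the running rats and 34.95 ± 8.66 CPM (SD, n = 4) in the NC rats, with overlapping rats (log2 fold change −0.78 with SE 0.30; adjusted p = 0.486, edgeR). The count was 0 without 12 hours p.r. replicate 2 or NC replicate 1, 3, or 4, and 2 without 12 hours p.r. replicate 4. The receptor genes *Nrp1*, *Ptprm*, and *Nrp2* were the most abundant, with log2 fold changes of −0.14, −0.0034, and −0.07.

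For *Zfpm1*, the GATA factors that FOG proteins bind were read first. *Gata1*, the classical partner of FOG1, had 0 reads in each of the 8 rats, as had *Gata4* and *Gata5*. In a single library a count of 0 allows up to 3 reads, or 0.232 to 0.408 CPM at the depth of these libraries. The limit on a level shared by the 8 rats is lower. *Gata3* had 22 reads over the 8 rats. *Gata2* was the most abundant, at 9.10 ± 0.348 FPKM (SD, n = 4) in the running rats and 8.22 ± 0.506 FPKM (SD, n = 4) in the NC rats, beside 8.89 and 5.19 FPKM for *Zfpm1* itself. The log2 fold change of *Gata2* was 0.15 (SE 0.08; adjusted p = 0.595, edgeR), and *Gata6* was at 0.443 ± 0.103 and 0.558 ± 0.176 FPKM (SD, n = 4). In the list of GATA factors, FOG2, NuRD, and CtBP, 19 genes were tested, with a median log2 fold change of 0.05 and 0 genes at an unadjusted p value under 0.05 by edgeR. This count was 2 without 12 hours p.r. replicate 3 and 1 without NC replicate 1 or 2. The most abundant corepressor genes, *Rbbp7*, *Mbd2*, and *Ctbp1*, had log2 fold changes of −0.17, −0.02, and 0.09, and *Chd4*, the NuRD helicase gene, 0.13 (SE 0.11).

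Among 37 RhoGAP genes other than *Arhgap23*, 3 were higher and 1 was lower at an unadjusted p value under 0.05, with a median log2 fold change of 0.00. *Arhgap11a* was at 13.6 ± 1.56 and 10.1 ± 0.917 CPM (SD, n = 4), which gave a log2 fold change of 0.43 (SE 0.13). *Arhgap27* was at 13.3 ± 1.21 and 9.52 ± 1.75 CPM (SD, n = 4), which gave a log2 fold change of 0.48 (SE 0.16), and *Arhgap44* had one of 0.52 (SE 0.22). *Dlc1*, a GAP of RhoA at focal adhesions, was the lower one, at 108 ± 4.19 and 126 ± 5.97 CPM (SD, n = 4), which gave a log2 fold change of −0.21 (SE 0.08). Their edgeR adjusted p values ran from 0.433 to 0.515, and the list held 2 genes at an unadjusted p value under 0.05, instead of 4, without 12 hours p.r. replicate 2 or 4 or NC replicate 1. *Arhgap29*, *Arhgap1*, and *Arhgap18* were the most abundant, with log2 fold changes of −0.02, −0.12, and −0.18.

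The GTPases and effectors of the pathway gave 26 genes tested, with a median log2 fold change of −0.07, of which 1 was higher and 2 were lower at an unadjusted p value under 0.05. *Arf1*, the gene of a small GTPase of the Golgi, was at 238 ± 7.25 and 195 ± 21.5 CPM (SD, n = 4), which gave a log2 fold change of 0.29 (SE 0.10). The lower genes were *Diaph1*, named above for its likeness to *Enc1*, and *Rnd1*, the gene of an atypical small GTPase, at 10.8 ± 2.56 and 16.7 ± 0.775 CPM (SD, n = 4) with a log2 fold change of −0.63 (SE 0.18). *Arf1*, *Diaph1*, and *Rnd1* had edgeR adjusted p values of 0.464, 0.429, and 0.432. *Rhoa*, the most abundant of the list, had a log2 fold change of −0.14 (SE 0.14).

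**Figure D4:**
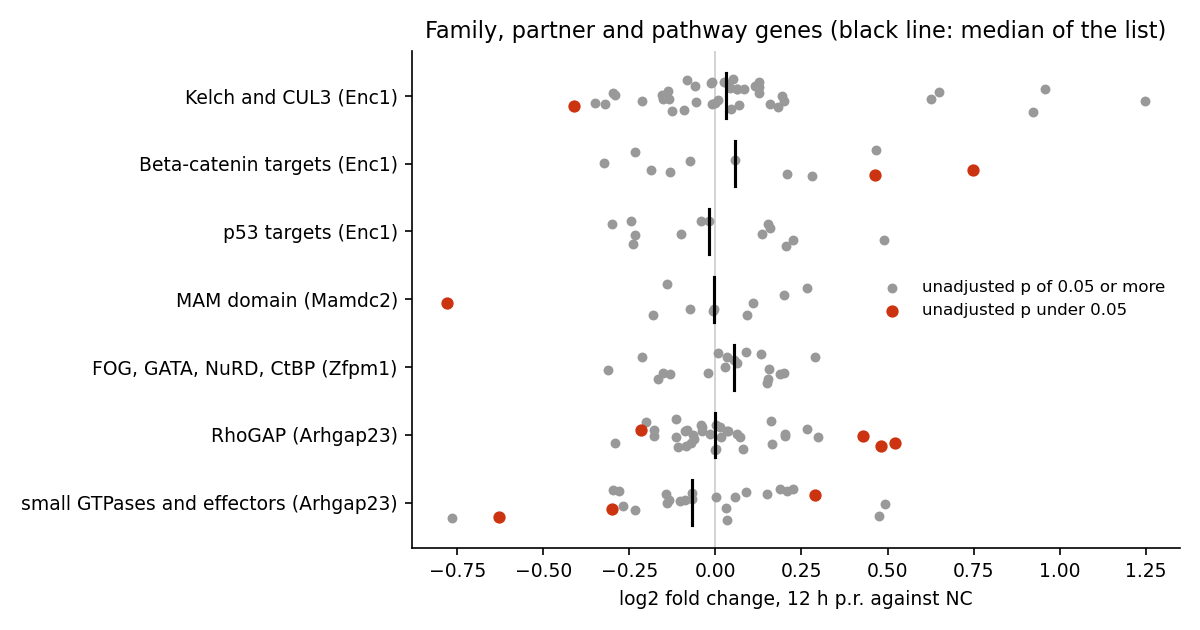
Log2 fold change at 12 h p.r. against NC (horizontal axis) of each tested gene in the 7 lists, with the chosen gene each list belongs to in brackets, genes at an unadjusted p value under 0.05 in red, and the median of each list as a black line. The medians lie between −0.07 and 0.06, and 11 genes are red.

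By the authors' account, the libraries were made with a stranded kit and aligned with a strand setting. Reads of a gene and of a gene that overlaps it may still be mixed unless the counting used the strand. The sources used here do not state whether it did. The RefSeq table of GRCr8 has another annotated gene overlapping *Mamdc2*, *Zfpm1*, and *Arhgap23*, and none overlapping *Enc1*. Of the nearest genes on both sides of each, 1 was tested, *Socs7* next to *Arhgap23*, with a log2 fold change of 0.15 (SE 0.21; adjusted p = 0.859, edgeR).

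The tendons were read for markers of tenocytes and of other cells. All 10 tenocyte markers were expressed, including *Scx* and *Tnmd*. Their summed level was 55247, 55335, 20303, and 56531 CPM in 12 hours p.r. replicates 1 to 4. In the NC group it ran from 34603 to 51905 CPM. Of these markers, 6 were higher after running and 4 lower, with a median log2 fold change of 0.34. At an unadjusted p value under 0.05 by edgeR, 3 were higher and 0 lower. Of 7 leukocyte markers tested, 0 were higher and 7 lower, with 0 at an unadjusted p value under 0.05 and a median of −0.39. The part of these cells in the differences was not tested. Skeletal muscle markers summed to 53609 CPM in 12 hours p.r. replicate 3 and to at most 10007 CPM in the other rats. That replicate had the lowest tenocyte sum. Cartilage and bone markers reached 1789 CPM in NC replicate 3 and 814 CPM in 12 hours p.r. replicate 1, against at most 400 CPM in the others. Without 12 hours p.r. replicate 3 the log2 fold changes were −1.02 for *Enc1*, −0.72 for *Mamdc2*, 0.72 for *Zfpm1*, and 0.56 for *Arhgap23*. Without it and NC replicate 3 together they were −1.05, −0.73, 0.74, and 0.60. Markers of red cells and platelets, the lineages FOG1 is known from, were lower in 9 of 9 entries tested at 12 hours p.r. Of these, 0 had an unadjusted p value under 0.05 by edgeR. *Hba-a2* was entered under separate Ensembl IDs, and *Tal1* and *Itga2b* differed little, with log2 fold changes of −0.05 and −0.12. The markers summed to 567 to 2226 CPM after running and 792 to 2965 CPM in the NC group. In this list *Gata1* was at 0. The part of these cells in the difference of *Zfpm1* was not tested.

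*Arhgap23* tended to rise with the vessel markers inside each group, a pattern picked out of 36 pairs of a gene and a marker list after the values were seen. The 7 endothelial markers tested summed to 1313, 1340, 1384, and 1442 CPM in NC replicates 1 to 4, the same order as that of *Arhgap23*. At 12 hours p.r. they summed to 1436, 1311, 1570, and 1456 CPM in replicates 1 to 4, and the rat with the least, replicate 2, also had the least *Arhgap23*. The 6 smooth muscle and pericyte markers summed to 1733, 1412, 1786, and 1568 CPM after running and to 1189, 1385, 1327, and 1612 CPM in the NC group. All 6 of these were higher at 12 hours p.r., with 0 at an unadjusted p value under 0.05 by edgeR. Of the endothelial markers, 5 were higher and 2 lower, with 2 and 1 at an unadjusted p value under 0.05, and their sums ran from 1311 to 1570 CPM after running and from 1313 to 1442 CPM in the NC group. Among the other pairs, the strongest relation within groups was that of *Mamdc2* with 6 adipocyte markers (r of −0.86 between the log2 level of the gene and the mean log2 level of the markers, over 8 rats after removing group means), against 0.91 and 0.88 for *Arhgap23* with the smooth muscle and endothelial markers. The adipocyte markers summed to 2852 to 6847 CPM after running and 3980 to 6855 CPM in the NC group. The part of vessel cells in the difference of *Arhgap23*, and of fat cells in that of *Mamdc2*, was not tested.

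**Figure D5:**
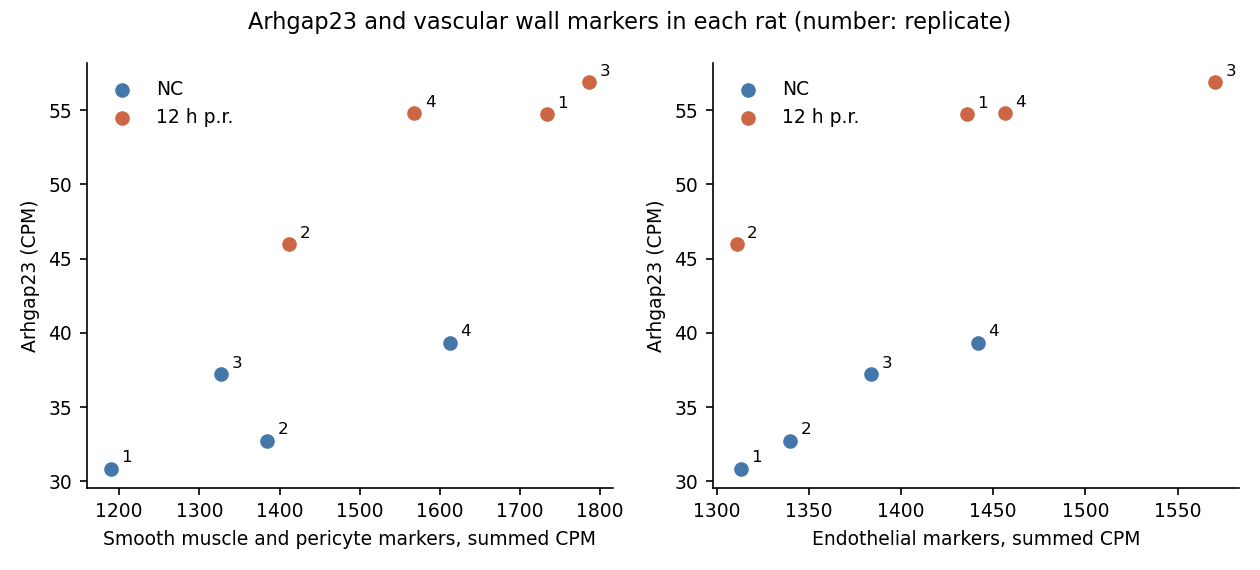
*Arhgap23* in CPM (vertical axes) against the summed CPM of smooth muscle and pericyte markers (left) and of endothelial markers (right) in each rat, with the replicate number beside each point. The axes do not start at 0. In the right panel *Arhgap23* is higher in rats farther to the right within each group, from 30.9 to 39.3 CPM in NC and from 46.0 to 56.9 CPM at 12 h p.r.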

How the data were processed

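The authors aligned the reads of 8 rat libraries to Rnor_6.0 with HISAT2 2.1.0, summarised them by Ensembl gene with featureCounts 1.6.3, and left the deposited counts unnormalized. The authors also deposited FPKM values, scaled by gene length and 1 factor per rat with DESeq2 1.30.1. A deposited table of their own comparison (fold change, p value, and adjusted p value) was not used.

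The members and lists were chosen with earlier results of these data known. Counts passed filterByExpr of edgeR 4.0.16, were scaled by TMM, and were fitted with the quasi-likelihood model (glmQLFit and glmQLFTest) over all 13937 genes, with Benjamini-Hochberg adjustment. Standard errors come from its F statistic. The fit was tested on simulated data. Named genes were fixed by rule: the 4 genes, their family members, the 5 most alike genes of each, list genes with the smallest unadjusted p value or the highest FPKM, genes adjacent in the ranking, and neighbours in the genome. *Cul3*, *Gata1* to *Gata6*, *Chd4*, *Klhl33*, *Hba-a2*, *Tal1*, and *Itga2b* were added after the values were seen.

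Alternatives were DESeq2 1.42.0, other scaling factors, no filter, limma 3.58.1 on log2 FPKM for genes at a mean of at least 0.1, a block, a muscle covariate, and fits without 1 rat. R 4.3.3 was used. Total counts ran from 7350509 to 12951397. The authors' library kit was stranded, but whether counting used the strand is not given in the sources used here. Replicates are different rats. Same-numbered rats did not deviate together (r of 0.08, −0.20, 0.13, and 0.09), so the numbers pair nothing.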

Additional observations from a re-analysis of the deposited data

Results flagged for a closer look

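Groups of 4 rats were searched for 1 rat far from the others (Dixon's criterion at the 0.05 level) in the 4 genes, their family members, the marker lists, and the total counts. Of 36 groups, 4 held such a rat, and chance gives about 1 in 20. No group of *Enc1*, *Mamdc2*, *Zfpm1*, or *Arhgap23* did. These genes were chosen for a low spread within groups, which favours that outcome, so it is no result about them. Their groups are also among the 36. *Mamdc4* was low in NC replicate 1, at a log2(CPM + 0.5) of 1.07 with the next rat at 1.72. In the NC group the mean log2 level of cartilage and bone markers was 6.30 in replicate 3 with the next at 3.23, and that of leukocyte markers was 5.54 in replicate 2 with the next at 6.77. Red cell and platelet markers stood at 5.02 in 12 h p.r. replicate 2 with the next at 4.11.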

How the results depend on the processing

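The 4 genes were chosen for a gap and a low spread within groups, which favours stable fold changes. Their stability is thus no support for the differences. In the 17 alternatives run for each of the 4 genes, all 68 log2 fold changes kept their direction and moved by less than the SD between rats, by 0.11 at most. Without 1 rat they ran from −1.02 to −0.91 for *Enc1*, −0.79 to −0.71 for *Mamdc2*, 0.72 to 0.83 for *Zfpm1*, and 0.54 to 0.66 for *Arhgap23*. Leaving out 12 h p.r. replicate 3 and NC replicate 3 together was chosen after seeing the data. The number of genes at an adjusted p value under 0.05, 1 by edgeR, was 96 with DESeq2 and 0 with limma on FPKM, the muscle covariate, those 2 rats left out, or any 1 rat left out. With the replicate number as a block it was 0, the kelch list had 4 genes, the p53 list 1, and the RhoGAP list 2 at an unadjusted p value under 0.05, and the numbers do not pair the rats. Genes at an unadjusted p value under 0.05 ran from 879 (without NC replicate 4) to 1580 (without 12 h p.r. replicate 3). Genes without overlap rose from 845 to between 1060 and 1587 without 1 rat and to 2433 without those 2 rats, as fewer rats overlap less often by construction. The kelch count of 1 was 2 with relative log expression factors, no filter, DESeq2, or limma on FPKM, 4 with the muscle covariate or without those 2 rats, and 1 to 6 without 1 rat. The β-catenin count of 2 was 1 with limma on FPKM or without those 2 rats and 1 to 2 without 1 rat. Without those 2 rats the p53 count was 1 and the MAM count 0. Without 1 rat the counts were 0 to 1 for p53, 0 to 2 for MAM, 0 to 2 for the FOG list, 2 to 5 for RhoGAP, and 2 to 4 for GTPases. By Spearman's rho, 0 of the 5 most alike genes of *Enc1* stayed among the top 5, and 1 of 5 for *Mamdc2*, *Zfpm1*, and *Arhgap23*. The causes were not tested.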
